A study of Drosophila melanogaster with 2 samples.

Results

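Small nuclear RNA (snRNA) genes of Drosophila melanogaster were examined for binding of Atf-2, a basic leucine zipper transcription factor. The genes were taken by annotation alone, as all genes of biotype snRNA on the chromosome arms (2L, 2R, 3L, 3R), 4 and X in Release 6, which gave 32 of 18164 annotated genes (transposable elements not counted). They comprised 5 U1, 6 U2, 3 U4, 7 U5 and 3 U6 genes, 1 gene each for U11, U12, U4atac, U6atac, U7 and LU, and 2 for 7SK. They lay on 2L (16 genes), 3R (10), 3L (4) and X (2). Chromatin immunoprecipitation and sequencing (ChIP-seq) had been done with an antibody to green fluorescent protein (GFP), as the sample description states, although the antibody field names Atf-2 itself. The chromatin came from whole embryos, 0 to 24 h old and of both sexes, of a transgenic line in which GFP was fused to the C-terminal end of Atf-2. Both samples, biological replicates 2 and 3, belong to this single group, so no condition was compared and no test over samples was possible. The labels do not say which promoter drives the transgene, and a mixture of all embryonic cell types and stages was measured.

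snRNAs are the RNA parts of the particles that splice messenger RNA. U1 recognises the 5′ splice site, U2 the branch site, U5 holds the exon ends, and U6, delivered in a duplex with U4, takes part in catalysis; U11, U12, U4atac and U6atac do the same for the minor class of introns. U7 directs the 3′ end formation of histone messages and 7SK holds the elongation kinase P-TEFb inactive. In flies most snRNA genes are read by RNA polymerase II and U6, U6atac and 7SK by RNA polymerase III, and both kinds carry a proximal sequence element (PSEA) bound by the complex SNAPc, which in the second kind is joined by a TATA box.

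Atf-2-GFP peaks lay at a small number of snRNA genes and at a minority of the U1, U2 and U5 genes. A peak here is 1 of the 3265 entries, on build dm6, that passed the authors' cut on the irreproducible discovery rate (IDR list). Signal means the per-region value deposited by the authors. An IDR summit lay within 500 bp of the gene start at 7 of 32 genes (21.9%, exact 95% binomial interval 9.28 to 40.0%), by 6 distinct summits, since U6:96Ab and U6:96Ac share 1. Among protein-coding genes the share was 13.1% (1832 of 13945), among tRNA genes 3.45% (10 of 290) and among small nucleolar RNA (snoRNA) genes 4.46% (12 of 269). Of all positions on these chromosomes, 2.33% lie within 500 bp of an IDR summit. The interval of the snRNA share takes in the protein-coding share and lies above the tRNA and snoRNA shares; it covers counting error over genes only, and the differences between classes were not tested. By the 3265 strongest regions of replicate 3 alone, the snRNA share was 12.5%, and its interval, which begins at 3.51%, takes in the tRNA share of 5.17% and the snoRNA share of 5.20% found in the same way. Within 1000 bp the snRNA count was again 7, against 15.7% of protein-coding, 6.21% of tRNA and 15.6% of snoRNA genes.

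**Figure D1:**
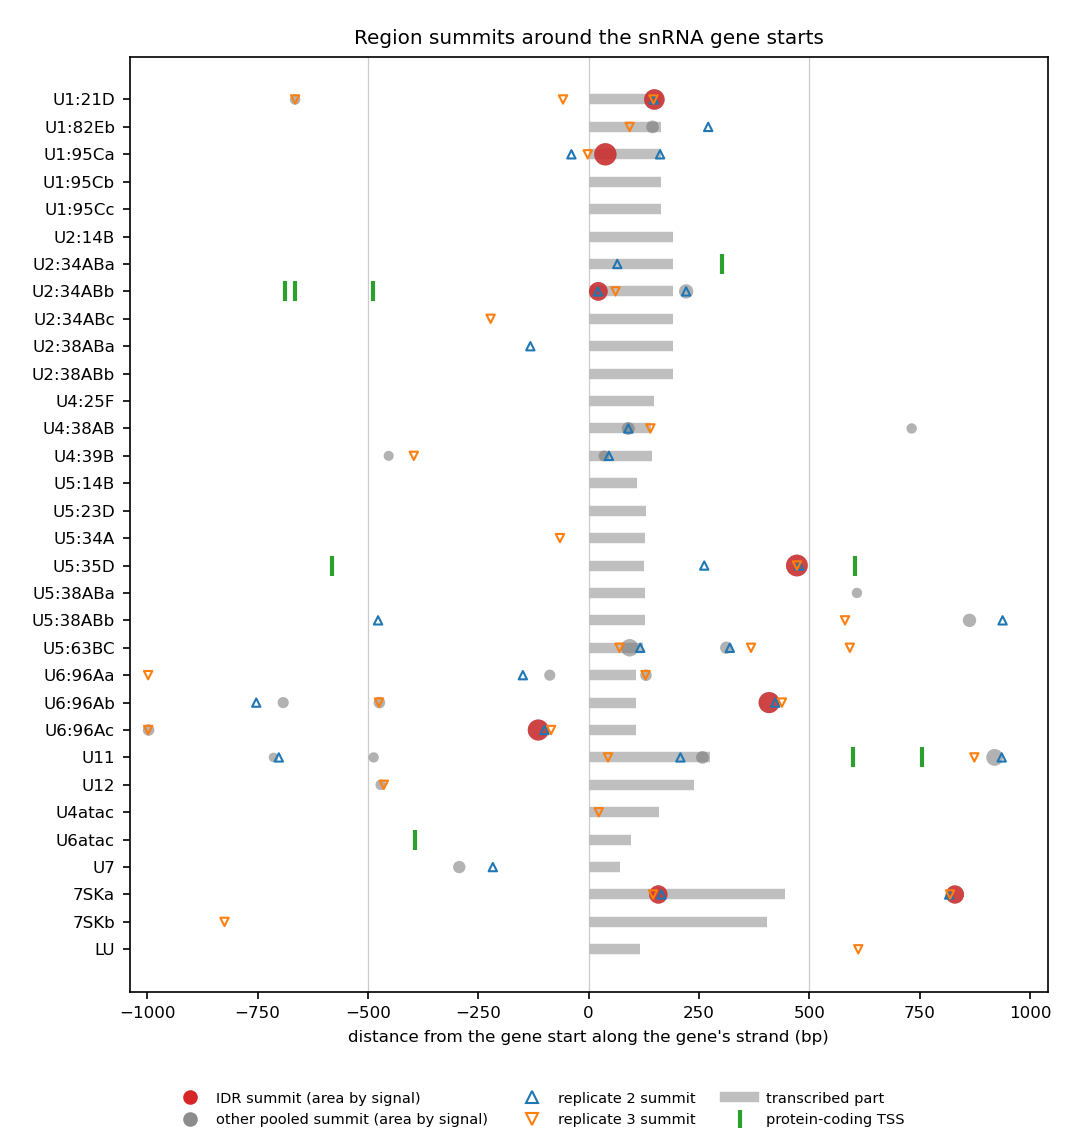
Each row is an snRNA gene, with the distance of region summits from the gene start along the gene's strand (bp) on the x axis, IDR and other pooled summits as discs with area by signal, replicate summits as triangles, the transcribed part as a bar and protein-coding TSSs as green ticks. IDR summits lie within 500 bp of 7 genes, and 8 genes have no region of any list within 1000 bp.

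The sequences before the genes show the shared promoter element with which the peaks can be compared. The 80 bases before the start are printed for the 7 genes with an IDR summit within 500 bp and for 4 relatives without one, read from the Release 6 (dm6) RefSeq sequence on the gene's strand. Capitals mark TTCCCAA or TTCTCAA, the core letters of the PSEA, and TATAAA or TATATA.
snRNA:U1:95Ca at chr3R:23859631-23859710, minus strand: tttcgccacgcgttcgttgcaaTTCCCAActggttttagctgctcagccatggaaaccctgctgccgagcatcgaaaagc
snRNA:U1:21D at chr2L:901655-901734, minus strand: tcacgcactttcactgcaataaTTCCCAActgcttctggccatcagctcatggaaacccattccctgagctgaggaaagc
snRNA:U1:95Cb at chr3R:23827790-23827869, plus strand: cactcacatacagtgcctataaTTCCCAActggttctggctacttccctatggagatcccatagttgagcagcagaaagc
snRNA:U2:34ABb at chr2L:13215759-13215838, plus strand: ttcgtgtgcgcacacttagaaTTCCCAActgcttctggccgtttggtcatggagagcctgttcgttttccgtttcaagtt
snRNA:U2:34ABa at chr2L:13212117-13212196, minus strand: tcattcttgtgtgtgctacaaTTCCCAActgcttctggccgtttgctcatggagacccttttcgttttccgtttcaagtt
snRNA:U5:35D at chr2L:15751683-15751762, minus strand: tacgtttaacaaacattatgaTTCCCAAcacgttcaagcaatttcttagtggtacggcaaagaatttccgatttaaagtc
snRNA:U6:96Aa at chr3R:24556008-24556087, plus strand: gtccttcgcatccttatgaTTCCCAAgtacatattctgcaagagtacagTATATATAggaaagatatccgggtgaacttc
snRNA:U6:96Ab at chr3R:24556612-24556691, plus strand: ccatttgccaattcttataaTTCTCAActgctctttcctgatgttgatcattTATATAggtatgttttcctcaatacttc
snRNA:U6:96Ac at chr3R:24557135-24557214, plus strand: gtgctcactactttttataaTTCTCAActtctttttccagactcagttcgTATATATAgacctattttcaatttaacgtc
snRNA:7SKa at chr3R:7474997-7475076, minus strand: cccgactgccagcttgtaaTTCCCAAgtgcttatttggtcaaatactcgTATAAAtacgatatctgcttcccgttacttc
snRNA:7SKb at chr3R:23432789-23432868, plus strand: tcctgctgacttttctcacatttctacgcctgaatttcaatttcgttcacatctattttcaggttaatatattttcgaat
The core stands at nearly the same place in all of them except 7SKb, and the TATA box only in the 3 U6 genes and 7SKa among these 11.

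U1, which pairs with the 5′ splice site, had the highest signal and IDR summits at 2 of its 5 genes. The summit at U1:95Ca (chromosome 3R, 23859467 to 23859630, minus strand) lay 38 bp into the transcribed part, with a pooled signal of 127 (rank 1725 of the pooled list). In replicate 2 the strongest region within 500 bp had a signal of 78.7 and its summit 162 bp into the gene, and a second region of 53.4 lay 39 bp upstream. In replicate 3 the signal was 59.2 and the summit 2 bp upstream. Replicate 2 thus had summits on both sides of the start, and replicate 3 a summit next to it. The nearest protein-coding start, that of Pli, was 30422 bp away. U1:21D (2L, 901491 to 901654, minus strand) had its summit 149 bp into the gene, near its end, with a pooled signal of 108. The replicate signals were 61.8 (replicate 2) and 40.2 (replicate 3). The 3 lists placed this summit within 2 bp of each other. U1:82Eb had weaker regions in all 3 lists: pooled 41.8, replicate 2 24.6 and replicate 3 23.3. U1:95Cb and U1:95Cc had no region within 1000 bp in any list.

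The U1 genes that differ in signal encode nearly the same RNA. The transcribed parts of U1:21D, U1:95Ca and U1:95Cb were 100% identical, and all 10 pairs of U1 genes were at least 98.2% identical, whereas their 100 bases upstream were at most 67.6% identical in global alignments. All 5 carried TTCCCAA with its first base 58 bp before the start, so the genes with a peak and those without did not differ in these core letters or their position. The bases around the core were not compared on their own.

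Of the 6 genes of U2, which pairs with the branch site, U2:34ABb (2L, 13215839 to 13216030, plus strand) alone had an IDR summit, 22 bp into the gene. Its pooled signal was 89.9, that of replicate 2 65.8 and that of replicate 3 27.5, with ranks of 2974, 2582 and 4618. A second pooled region with a signal of 52.5 lay 221 bp downstream of the start. The nearest protein-coding TSS, of the cell surface protein gene kek4, was 489 bp upstream of U2:34ABb and 511 bp from the summit. U2:34ABa, which has a TSS of CG15482 at 302 bp, had only a replicate 2 region with a signal of 18.2 (rank 22430). The transcribed parts of U2:34ABa and U2:34ABb were 99.5% identical and their upstream sequences 78.3%. U2:34ABc, with its neighbour U5:34A, shared a replicate 3 region of 13.9, U2:38ABa had a replicate 2 region of 16.2, and U2:38ABb and U2:14B had none in any list within 1000 bp.

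U6, the catalytic snRNA, is encoded by 3 genes that lie in a row on 3R, with 100% identical transcribed parts. One IDR summit stood between the second and the third gene, at 24557101, 114 bp before the start of U6:96Ac (24557215 to 24557321, plus strand) and 409 bp after that of U6:96Ab (24556692 to 24556798, plus strand). Its pooled signal was 113 (rank 2080). In replicate 2 it was 90.3 (rank 1554), the highest replicate 2 value at any snRNA gene, and in replicate 3 it was 19.2 (rank 10464). Replicate 3 thus ranked this region far lower than replicate 2 did, and its strongest region within 500 bp of U6:96Ab was another one, 475 bp upstream, with a signal of 24.1. That region lay 129 bp after the start of U6:96Aa, where the pooled signal was 34.5 and that of replicate 2, in a region 149 bp upstream, 15.5. No protein-coding TSS was within 1000 bp of these genes, the nearest being 7071 bp from U6:96Aa.

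The 7SK RNA has 2 annotated genes. 7SKa (3R, 7474553 to 7474996, minus strand) had an IDR summit 158 bp into the gene and a pooled signal of 86.4. The replicate signals were 49.3 (replicate 2) and 41.1 (replicate 3). Its rank was 2130 in replicate 3 and 3881 in replicate 2. A second IDR summit, 830 bp from the start, had a signal of 85.5 and lay 385 bp from a TSS of CG1142. 7SKb was 48.9% identical to 7SKa over the transcribed part, lacked the PSEA core and had a single replicate 3 region within 1000 bp, 825 bp upstream with a signal of 15.4 and 570 bp from a TSS of CG4374.

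Of the 7 genes of U5, which contacts the exon ends, U5:35D (2L, 15751557 to 15751682, minus strand) had an IDR summit, 472 bp after its start and outside the gene. The pooled signal was 121, that of replicate 2 80.9 and that of replicate 3 35.9. This summit was closer to a protein-coding TSS, that of the mitochondrial complex I subunit gene ND-B17 at 132 bp, than to U5:35D, and a TSS of Mtr4, an RNA helicase gene of the nuclear exosome, lay on the other side of U5:35D at 581 bp. It was the only 1 of the 6 summits within 500 bp of which this holds; without it 6 genes (18.8%) had a summit. U5:63BC stood just below the IDR list, with a pooled signal of 78.5 (rank 3651) 93 bp into the gene against a lowest IDR signal of 84.6. Its replicate 2 signal of 59.4 (rank 2988) was among the strongest 3265 regions of that list, and its replicate 3 signal of 22.7 (rank 7029) was not. U5:38ABb had a pooled region of 46.0 at 863 bp, U5:38ABa one of 27.6 at 608 bp, and U5:14B and U5:23D had none in any list within 1000 bp.

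Neither U4, the partner of U6 (3 genes), nor any snRNA of the minor spliceosome (4 genes) had an IDR summit within 1000 bp. At that distance 21.9% of all snRNA and 15.7% of protein-coding genes had one, so a count of 0 among so few does not set these types apart. U4:38AB had a pooled signal of 43.2, with 27.8 and 13.5 in replicates 2 and 3. U4:39B had a pooled signal of 30.7, with 37.2 in replicate 2 (46 bp into the gene) and 20.4 in replicate 3 (396 bp upstream). U4:25F had no region. U11 had a pooled signal of 41.9 within 500 bp and one of 72.8 at 920 bp, on the side where the TSS of Fie lies 599 bp away. U12 had 28.6 at 471 bp upstream, U4atac a replicate 3 region only (rank 18238), and U6atac none. U7 had a pooled signal of 39.3 at 293 bp upstream and 28.5 in replicate 2, but no region in replicate 3. LU had a single replicate 3 region, 611 bp away. Counted by polymerase, 3 of 6 genes of U6, U6atac and 7SK and 4 of 25 genes of the other U types had an IDR summit within 500 bp; with shared copies and so few genes no difference between the kinds was tested. Of the 3, U6:96Ab and U6:96Ac share their summit, and by the strongest regions of replicate 3 alone the counts were 1 of 6 and 3 of 25.

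**Figure D2:**
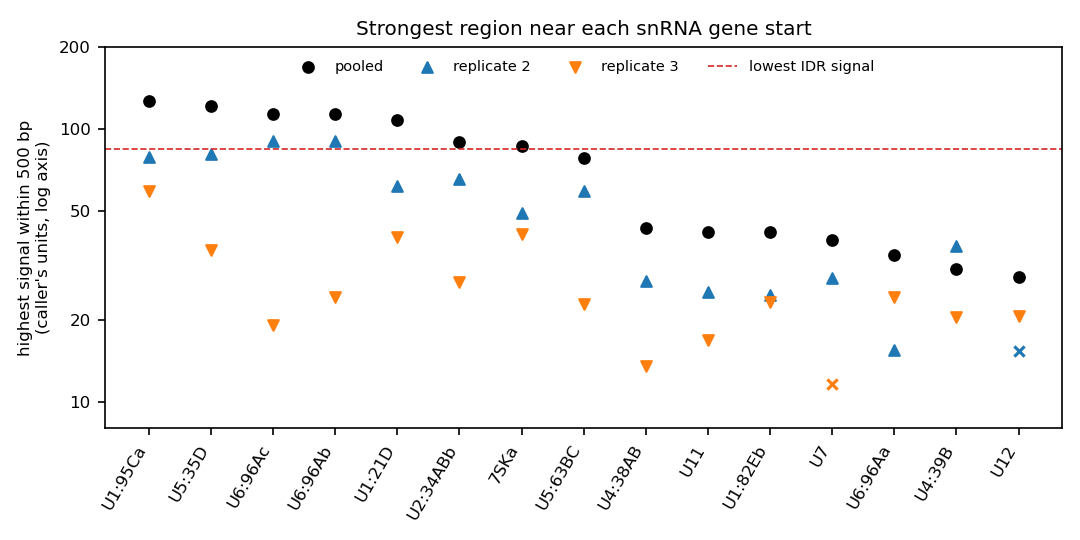
For the 15 snRNA genes with a pooled region within 500 bp of the start, the highest signal there in the pooled list, replicate 2 and replicate 3 is plotted on a log axis in the caller's units, with a cross at the list's lowest signal where a replicate has no region. Pooled signals of 7 genes lie above the lowest IDR signal of 84.6 (dashed), U5:63BC follows at 78.5 and the other 7 lie between 28.6 and 43.2; U6:96Ab and U6:96Ac share their pooled region.

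All 6 summits belonged to the weaker part of the IDR list. Their signals ran from 86.4 to 127 and their ranks from 1725 to 3173, so none of the 7 genes had a peak among the 1632 strongest of the list. The interval for 0 of 32 genes reaches 10.9%. The share of protein-coding genes near these 1632 peaks was not counted, so the 0 does not set the snRNA genes apart. The median signal over the 7 genes was 113, against 137 for the 1832 protein-coding genes with an IDR summit, 151 for the 10 tRNA genes and 161 for the 12 snoRNA genes. In the pooled list, which holds 30000 regions, includes background and is no call, 15 of 32 genes (46.9%, interval 29.1 to 65.3%) had a region within 500 bp, near the 47.9% of protein-coding genes, with 35.2% of tRNA and 31.6% of snoRNA genes. Of all positions 19.4% lie that near a pooled summit. Within 1000 bp it was 17 of 32 (53.1%), against 60.2% of protein-coding genes. The median of the highest pooled signal over the 15 genes was 78.5, and over the 6677 protein-coding genes with such a region 49.9. The 15 values count the shared U6 summit at both its genes and include the U5 summit that is closer to a protein-coding TSS. Without that repeat and that U5 gene, the middle value over 13 genes was 43.2, below 49.9. The 49.9 of protein-coding genes still counts shared summits at each gene, so these medians were made by unlike rules. Within 250 bp, where neither that repeat nor that U5 gene enters, the snRNA median was 82.4 over 10 genes, with no protein-coding median at that distance. The snRNA signal was therefore not set above that of protein-coding genes.

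**Figure D3:**
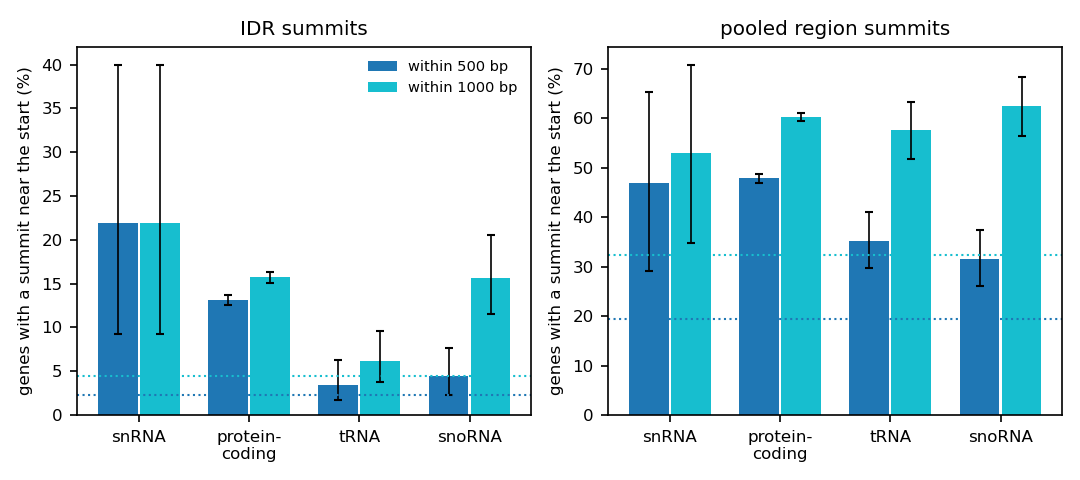
Bars give the percentage of genes of each class with an IDR summit (left) or a pooled region summit (right) within 500 and 1000 bp of the gene start, error bars the exact 95% binomial interval over genes, and dotted lines the percentage of all chromosome positions that near a summit. For IDR summits within 500 bp the snRNA genes stand at 21.9% and protein-coding genes at 13.1%.

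Both replicates had a region at part of these genes. A region of any rank lay within 500 bp in both replicates at 13 genes, in replicate 2 alone at 4, in replicate 3 alone at 4 and in neither at 11. Among protein-coding genes 34.8% had one in both replicates, 12.6% in replicate 2 alone and 10.6% in replicate 3 alone. In each replicate 17 snRNA genes (53.1%) had a region, against 47.4% of protein-coding genes in replicate 2 and 45.4% in replicate 3, so the snRNA counts were near those of protein-coding genes. Among the 3265 strongest regions of replicate 2 there was one near 7 genes (13.3% of protein-coding genes), 6 of them shared with the IDR count, U5:63BC taking the place of 7SKa. Among the 3265 strongest of replicate 3 there was one near 4 genes (12.5%, against 12.2% of protein-coding genes), namely U1:95Ca, U1:21D, U5:35D and 7SKa. By this cut U2:34ABb, U6:96Ab and U6:96Ac therefore rested on replicate 2, and 7SKa on replicate 3. Without replicate 2 the snRNA share was close to that of protein-coding genes. Each list has its own signal scale, so ranks and not signal ratios are compared.

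Pooled summits lay mostly downstream of the start. The strongest within 500 bp was downstream at 12 of 15 genes, where the share of protein-coding genes was 36.4%, and its median position was 93 bp downstream. In replicate 3 alone the strongest summit was downstream at 10 of 17 genes (58.8%) with a median of 44 bp. There the shares were 40.2% of protein-coding, 49.2% of tRNA and 35.6% of snoRNA genes. In replicate 2 alone it was downstream at 12 of 17 (70.6%) with a median of 90 bp, against 34.9%, 46.9% and 38.3%. The differences were not tested. The 12 genes of the pooled list include U5:35D, whose summit is closer to ND-B17, and U6:96Ab, whose summit lies upstream of the nearer U6:96Ac; without these it was 10 of 13 genes. The strongest pooled summit was inside the transcribed part for U1:95Ca, U1:21D, U2:34ABb and 7SKa of the 7 genes with a peak. Between the replicates the summit position of the strongest region varied with a median SD of 35.4 bp over the 13 genes that had one in both. The median hides large shifts. At U6:96Ab, U4:39B, U6:96Aa and U1:95Ca the strongest summits of replicates 2 and 3 lay on opposite sides of the start. At U6:96Ab they lay 423 bp downstream and 475 bp upstream, and at U4:39B 46 bp downstream and 396 bp upstream. The side was the same at the other genes with a region in both. To show where such summits fall, 50 bases on each side of 3 of them are printed on the gene's strand (dm6, RefSeq), with the transcribed part in capitals; the base in the middle is the summit.
snRNA:U1:95Ca at chr3R:23859542-23859642, minus strand: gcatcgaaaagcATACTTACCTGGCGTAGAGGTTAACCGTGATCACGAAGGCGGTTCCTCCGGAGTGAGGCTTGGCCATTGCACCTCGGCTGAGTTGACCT
snRNA:U2:34ABb at chr2L:13215811-13215911, plus strand: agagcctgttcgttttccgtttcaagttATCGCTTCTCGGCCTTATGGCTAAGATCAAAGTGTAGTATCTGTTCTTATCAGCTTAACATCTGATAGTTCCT
snRNA:U6:96Ac at chr3R:24557051-24557151, plus strand: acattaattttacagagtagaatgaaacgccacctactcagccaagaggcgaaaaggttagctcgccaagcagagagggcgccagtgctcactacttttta
At U1:95Ca and U2:34ABb the summit lies 38 and 22 bases into the RNA, and at U6:96Ac the window ends before the PSEA core printed above.

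At the U1, U2 and U6 peaks part of the sequence occurs in several copies. Sequence windows of 36 bases were counted over the whole Release 6 assembly on both strands. In the transcribed parts of U1:21D, U1:95Ca, U2:34ABb, U6:96Ab and U6:96Ac none of the 36-mers was unique, as was so for 4 of the 25 genes without an IDR summit. In the 500 bp on each side of the start 81.6 to 100% were unique at the 7 genes with a summit (median 86.4%) and 46.2 to 100% at the others (median 93.6%). Within 50 bp of the summit the unique share was 7.58% at U1:95Ca, 12.1% at U2:34ABb and 100% at U5:35D, 7SKa and the U6 summit, and at U1:21D 33 of 66 windows were unique. In the whole peak interval it was 64.6% at U1:95Ca, 55.6% at U2:34ABb, 65.6% at U1:21D, 82.3% at the U6 summit and 100% at U5:35D and 7SKa. How reads that match several places were treated is not given in the sources used here, and the part of copy number in the presence or position of these peaks was not tested. Of the 9 genes with 100% unique sequence, 7SKa had an IDR summit within 500 bp and the other 8 (U4:25F, U11, U12, U4atac, U6atac, U7, 7SKb and LU) had none. With 36-mers 9 genes had no unique window in the transcribed part, and with 50-mers again 9.

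**Figure D4:**
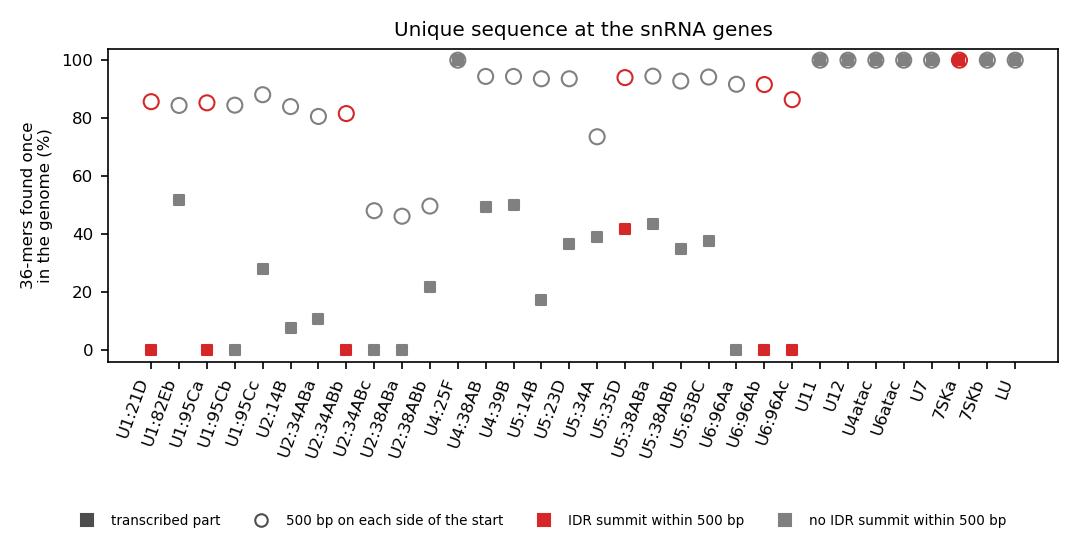
For each snRNA gene the percentage of 36-mers that occur once in the assembly is plotted for the transcribed part (squares) and for the 500 bp on each side of the start (circles), in red where an IDR summit lies within 500 bp. Squares of 5 of the 7 red genes lie at 0, while all circles lie at 46.2% or above.

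The snRNA genes shared a promoter element that was rare at other genes, whether or not they had a peak. AATTCCC or TTCCCAA, the core letters of the PSEA, occurred on either strand in the 100 bases before the start of 26 genes (81.2%), against 2.85% of protein-coding, 4.14% of tRNA and 2.97% of snoRNA genes. When TTCTCAA was counted too, a form seen in these sequences and added afterwards, it was 31 genes (96.9%), against 4.20% of protein-coding genes. AATTCCC and TTCCCAA overlap each other by 5 bases where the element has both. On the gene's strand TTCCCAA stood at 26 genes and TTCTCAA alone at 5, with the first base 55 to 64 bp (median 58) before the start. The core was present at all 7 genes with an IDR summit within 500 bp and at 24 of the 25 without. TATAAA or TATATA began 20 to 35 bp before the start in 5 of the 6 genes of U6, U6atac and 7SK, all but 7SKb, and in 0 of the 26 others. TATATA, too, was added after these sequences were seen, and U6:96Aa and U6:96Ac enter this count only through it. The share of other gene classes in this range of positions was not counted. Anywhere in the 100 bases before the start, either form occurred at 18.8% of snRNA and 25.6% of protein-coding genes.

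**Figure D5:**
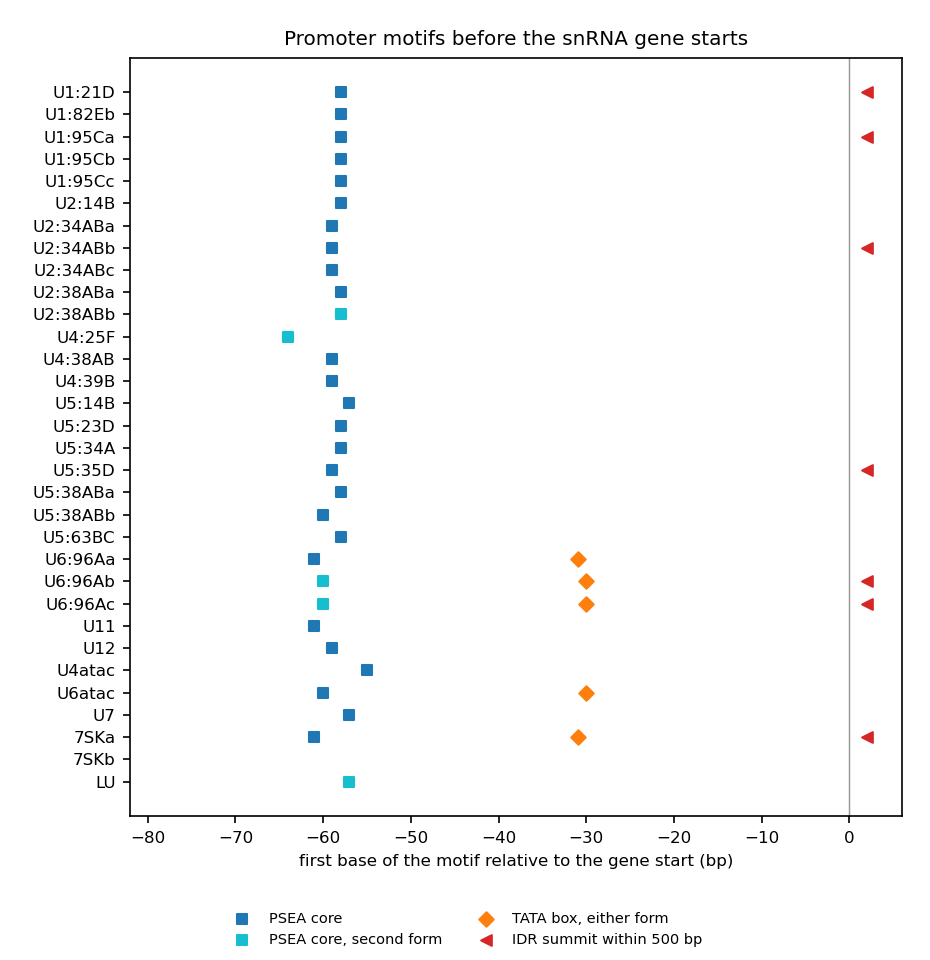
The first base of the PSEA core (squares) and of a TATA box that begins 20 to 35 bp before the start (diamonds) is plotted by its position relative to the gene start (bp) for the 32 snRNA genes, and red triangles mark genes with an IDR summit within 500 bp. Squares lie between 64 and 55 bp before the start in 31 genes, and diamonds appear in 5.

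Exact matches to 4 other motifs were also counted. From 250 bases before to 50 after the start, TGACGTCA (the cAMP response element, bound by relatives of Atf-2), TTACGTAA (PAR bZIP), TATCGATA (the DRE) and GGTCACACT (M1BP) each occurred on either strand at 0 of 32 snRNA genes, where the shares of protein-coding genes were 0.437%, 0.452%, 9.36% and 6.05%. At such low shares of the first and second motif, a count of 0 among 32 genes does not set the snRNA genes apart. None of the 4 occurred within 100 bp of the 7 IDR summits within 1000 bp of an snRNA gene. TTCCCAA lay within 100 bp of the summits at U1:95Ca and U2:34ABb, and TTCTCAA within 100 bp of the U6 summit. The shares of all IDR summits with these motifs were not counted, so the counts at summits do not set those of the snRNA genes apart.

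The protein genes that make and assemble snRNAs were counted beside the snRNA genes. Of 56 listed genes 51 were matched in the annotation, and 13 of them (25.5%, interval 14.3 to 39.6%) had an IDR summit within 500 bp of a TSS, where 14.9% of all protein-coding genes did by the same rule. Transcription factors took 4 of 8, with Bdp1 (signal 707, rank 44) and Brf (386, rank 189), subunits of the polymerase III factor TFIIIB, ahead of TfIIB (137) and the SNAPc subunit Pbp95 (123). Replicate signals were 483 and 221 for Bdp1 and 253 and 128 for Brf in replicates 2 and 3. Both were above the signal of any snRNA gene. Integrator, which cleaves the 3′ ends of polymerase II snRNA transcripts, took 5 of 14, at IntS6 (248), IntS9 (229), defl (157), IntS10 (129) and IntS11 (127). The little elongation complex had Ice1 (162) of 4 genes, the export and assembly group Cbp20 (89.7) of 9, and the U1 and U2 protein group snf (86.2) of 4. La, which binds the 3′ end of new polymerase III transcripts, had 132. It was the only 1 of the 4 matched genes for proteins at the U6 3′ end with a summit. Of the 8 matched genes of the Sm ring, which is loaded onto snRNAs in the cytoplasm, and of its U7 variants Lsm10 and Lsm11, 0 had a summit (upper limit of the interval 36.9%). In 8 of the 13 cases the summit was nearest to a TSS of a neighbouring gene, as at Bdp1, where that of CG6565 was 35 bp and that of Bdp1 94 bp away; at Brf, IntS9, IntS11, snf and La it was nearest to the gene itself.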

How the data were processed

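Per the labels' protocols, chromatin was sonicated, with a fragment size range of 200 to 800 bp. Per the deposited readme texts, the authors derived a list of regions from each replicate's alignments with a control, a list from both replicates pooled, and the IDR list from these 3. The aligner, the peak caller, the IDR threshold and the treatment of reads that match several places were not named in the sources used here. The column of signal holds the value the authors' caller deposited per region; the deposited −log10 q-value was not used. Read totals are not part of the lists, so depth is unknown, no depth weighs the replicates, and binomial intervals cover counting over genes only. Lists on build dm3 and the controls were not analysed here.

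Summits of the 4 dm6 lists were placed against starts of genes in the Ensembl release 115 annotation, 1 start per gene, or every transcript start for protein-coding TSSs. Distances follow the gene's strand. Where several regions were near, the strongest is given. Motifs were searched on both strands, and 36-mers and 50-mers counted over the whole assembly. Identities come from global alignments (match 1, mismatch -1, gap opening -2, extension -0.5). Older symbols in the list of 56 protein genes were matched through RefSeq synonyms. Python 3.11.15, numpy 2.4.6, scipy 1.17.1, pandas 2.3.3, biopython 1.88 and matplotlib 3.10.9 were used, and the counting was tested on simulated data. All snRNA genes are named or counted: fully where an IDR summit lay within 1000 bp, then by pooled signal. Protein genes named are those with a summit. The members and lists were chosen with earlier results of these data known. Alternatives were other distances, gene body overlap, loci, genes far from protein-coding TSSs, the stronger part of the IDR list, each replicate alone and other motif windows.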

Additional observations from a re-analysis of the deposited data

How the results depend on the processing

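The snRNA share with an IDR summit was 21.9% and stayed between 15.6% and 23.1% within 250 or 1000 bp, by overlap of the peak with the gene body, by locus (6 of 26 loci), without genes that have a protein-coding TSS within 500 or 1000 bp, and by summits closest to an snRNA gene (an alternative added after seeing the data). It was 0 in the stronger 1632 IDR peaks, and 12.5% without replicate 2 and 21.9% without replicate 3. The pooled share of 46.9% lay between 31.2% and 53.1% in all 8 alternatives, with 53.1% in the whole list of each replicate alone. The median pooled signal of 78.5 became 72.8 within 1000 bp and 82.4 within 250 bp; it was not set across replicate lists, whose scales differ. It fell below the protein-coding median when the repeated U6 summit and the U5 summit closer to a protein-coding TSS were left out, a rule not applied to the protein-coding genes. The median summit position of 93 bp downstream became 130 bp within 1000 bp. It was 44 bp in the whole list of replicate 3 and 90 bp in that of replicate 2. The PSEA share rose from 81.2% to 96.9% when TTCTCAA was counted, which adds a motif. The TATAAA share moved from 15.6% to 46.9% in the window of 250 bases before to 50 after the start, which is longer, and was 45.8% there among protein-coding genes. By every transcript start the protein-coding share was 14.9% in place of 13.1%, and it was 12.2% without replicate 2 and 13.3% without replicate 3. The tRNA share ran from 3.10% to 5.17% and the snoRNA share from 3.35% to 5.20% over the same 3 alternatives. The share of protein genes for snRNA synthesis, 25.5%, was 27.5% within 1000 bp, 25.5% without replicate 2 and 29.4% without replicate 3. For all protein-coding genes, by every transcript start, these 3 alternatives gave 17.3%, 14.1% and 15%. The interval of the share within 1000 bp takes in 17.3%, and that of the main count, which begins at 14.3%, takes in 14.9%. Without replicate 2 the interval begins at 14.3%, just above 14.1%, and without replicate 3 at 17.5%, above 15%. The differences were not tested. No paired analysis was possible because both samples belong to the same group. Unknown depth limits what an absent region shows.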
